A study of Homo sapiens with 18 samples.

Results

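Glycolysis splits glucose to pyruvate in the cytosol, the pentose phosphate pathway diverts glucose carbon to NADPH and ribose, and the pyruvate dehydrogenase complex passes pyruvate into the tricarboxylic acid (TCA) cycle of the mitochondrion. Proliferating cell lines take up much glucose and release much of it as lactate, while TCA intermediates are drawn off for lipid and amino acid synthesis. Most of these enzymes are abundant housekeeping proteins, and their mRNAs are commonly long-lived. The set described here was fixed by gene symbol as 48 enzymes of these pathways, of which 43 were listed under that symbol among the 8996 genes of the deposited table of mRNA kinetics.

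The kinetics came from SLAM-seq, in which cells build 4-thiouridine (s4U) into the RNA they make, and iodoacetamide then alkylates that base so that it is read as C instead of T. The cells were wild-type (WT) HEK293T, a human embryonic kidney line, treated with STM2457, an inhibitor of the m6A methyltransferase METTL3, or with the solvent DMSO. After 3 h of treatment the cells received no s4U or 100 µM s4U for 90 or 180 min, giving 6 combinations of 3 samples, 9 with STM2457 and 9 with DMSO, from which 3′-end libraries of polyadenylated RNA were made. N6-methyladenosine (m6A) is the most common internal mark of mRNA and is tied to mRNA decay, and the series asks how m6A in coding sequence affects it.

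For each gene the table holds a single fitted half-life and a single fitted synthesis rate in each treatment and no value per sample, so there is no error, no p-value and no replicate check, and read depth is unknown. A gene was counted as longer-lived or shorter-lived where its half-life in STM2457 differed by more than 1.5-fold from that in DMSO. This is a rule of size, not a test. The file names no time unit. Hours are inferred from the value of MYC, known for its rapid decay, which was 0.966 in STM2457 and 0.653 in DMSO. MYC was picked with these values known, and every figure in hours depends on this reading. The largest half-life, 69.3, equals ln 2 divided by 0.01 and is called the ceiling here. Of 11 genes commonly expressed in HEK293T, 8 were listed, including VIM, LIN28B and HOXA9, and of 11 markers of other cell types COL1A1 alone was listed.

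The mRNAs of these enzymes were long-lived in both treatments, and the median ratio between treatments was near that of all genes. Their median half-life was 12.4 h in STM2457 and 17.6 h in DMSO, against 5.39 h in STM2457 and 5.61 h in DMSO for all genes. In DMSO, 34 of the 43 lay above 10 h (79.1%), against 26.3% of all genes. In STM2457, 11 members were longer-lived (25.6%), beside 28.5% of all genes, and 16 were shorter-lived (37.2%), beside 24.9% of all genes. The remaining 16 were not past 1.5-fold, and they include PDHA1, which stood at the ceiling in both treatments and so has no readable ratio. The median log2 half-life ratio was 0.00 for the members and -0.01 for all genes, and the quartiles were -0.97 and 0.53 for the members and -0.58 and 0.73 for all genes. The middle member in this order was PDHA1 itself, and without the members at the ceiling the median was -0.21. Where the STM2457 half-life is at the ceiling and the DMSO half-life is not, the fitted ratio is a lower bound of what an uncapped fit would give. Such ratios are given below as at least that size in this sense only. With no error given, they do not bound the true ratio.

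The even median covered opposite shifts at different steps. Among the 17 glycolytic mRNAs, counting the lactate dehydrogenases and PFKFB3, 9 were longer-lived (52.9%) and 2 shorter-lived (11.8%), with a median log2 ratio of 0.74. Of these 9, 7 stood at the ceiling in STM2457. The pentose phosphate enzymes had 0 longer-lived and 2 shorter-lived of 5, with a median of 0.01. For pyruvate dehydrogenase and its kinases the counts were 1 longer-lived and 4 shorter-lived of 6, with a median of -0.73. The TCA cycle had 1 longer-lived and 7 shorter-lived of 14, with a median of -0.45. None of these differences between steps was tested.

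**Figure D1:**
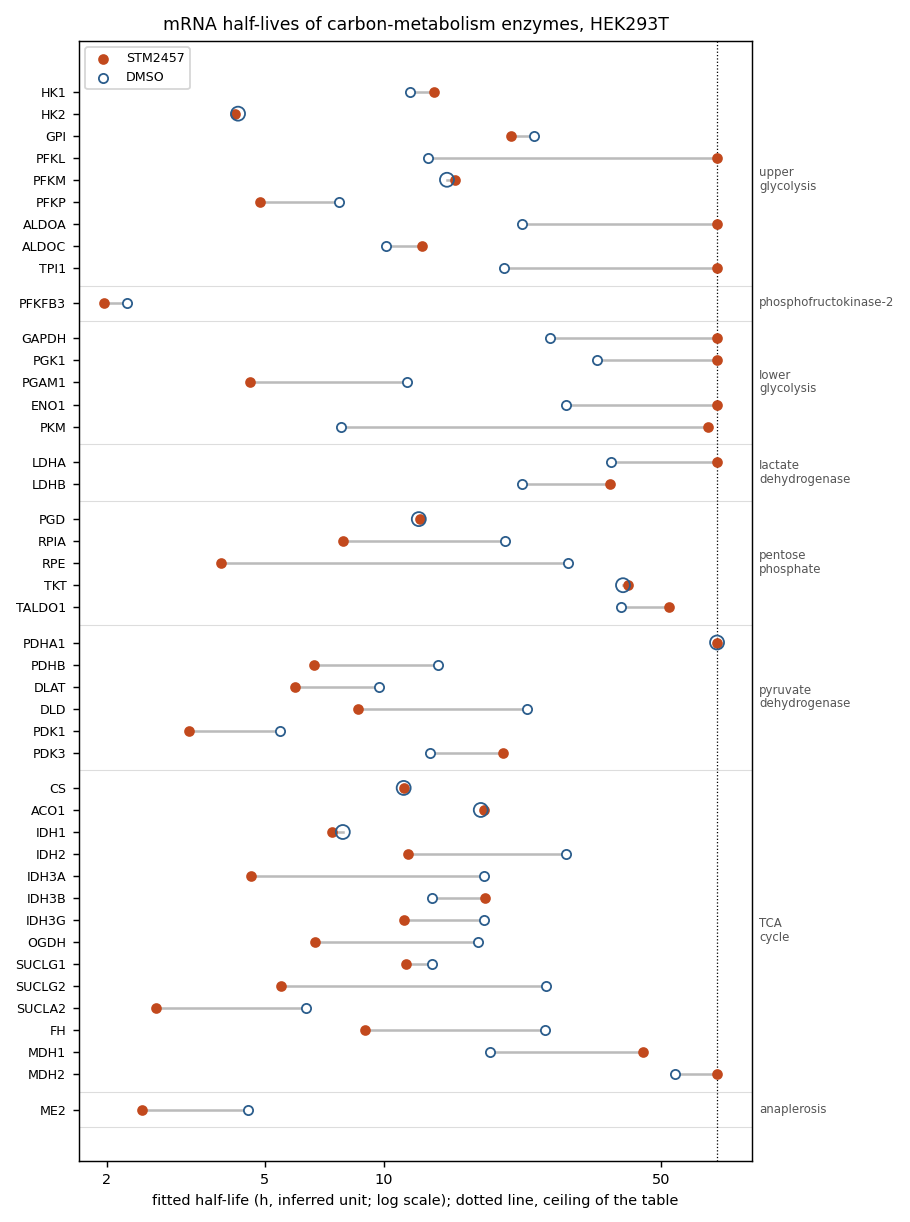
Fitted mRNA half-life in hours (inferred unit, log axis) of each of the 43 members in STM2457 (filled) and DMSO (open, with a larger ring where both values nearly coincide), grouped by step; the dotted line is the ceiling of 69.3. Filled points reach the ceiling for 7 glycolytic mRNAs, PDHA1 and MDH2, and lie left of the open points for most pyruvate dehydrogenase and TCA mRNAs.

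In upper glycolysis, 3 mRNAs were longer-lived, 1 was shorter-lived and 5 stayed within 1.5-fold. The hexokinases, which phosphorylate glucose, were among those within 1.5-fold: HK1 had 13.4 h in STM2457 and 11.6 h in DMSO, and HK2 had 4.21 h in STM2457 and 4.29 h in DMSO. HK2 was also the only member with a lower synthesis rate past 1.5-fold, at 49.4 in STM2457 and 75.8 in DMSO in the table's own units. GPI, which converts glucose 6-phosphate to fructose 6-phosphate, had 20.9 h in STM2457 and 24.0 h in DMSO.

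The phosphofructokinases, which catalyse the committed step, went 3 ways. PFKL, the liver-type subunit, stood at the ceiling of 69.3 h in STM2457, against 12.9 h in DMSO, a log2 ratio of at least 2.42. PFKM, the muscle-type subunit, had 15.1 h in STM2457 and 14.4 h in DMSO. PFKP, the platelet-type subunit, had 4.87 h in STM2457 and 7.69 h in DMSO, 1.58-fold shorter and just past the size rule. The longest and shortest of these half-lives were at least 14.2-fold apart in STM2457, where PFKL was at the ceiling, and 1.88-fold apart in DMSO. These 3 isoenzymes thus lay farther apart in STM2457, which was not so for every isoenzyme set. PFKFB3, which makes and removes the sugar bisphosphate that activates phosphofructokinase, had the shortest half-life of all members in both treatments, 1.97 h in STM2457 and 2.24 h in DMSO.

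PFKL (ENSG00000141959.17) lies on chromosome 21 (44300051 to 44327376, plus strand, GRCh38). Its coding sequence holds 2 DRACH motifs, the 5-base context in which METTL3 methylates adenosine (D is A, G or T; R is A or G; H is A, C or T), at 100 nt or more from an exon junction, and both stand in 1 exon. They are shown because PFKL had the highest bound among members at the ceiling, and the capitals mark the motif in each 21-base window (chr21:44326817-44326837 and chr21:44326839-44326859, plus strand, GENCODE 29, GRCh38).
PFKL, codon 770: ggagcacgTGACCcgccgcac
PFKL, codon 777: ctgagcatGGACAagggcttc
These are matches in the sequence, not measured m6A sites.

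Of the aldolases, which cleave fructose bisphosphate into trioses, ALDOA stood at 69.3 h in STM2457, against 22.4 h in DMSO, a log2 ratio of at least 1.63. ALDOC, the brain-type form, had 12.5 h in STM2457 and 10.1 h in DMSO. TPI1, which interconverts the triose phosphates, was also at the ceiling in STM2457, against 20.1 h in DMSO, with a log2 ratio of at least 1.79. The synthesis ratios of ALDOA, TPI1 and PFKL were within 1.5-fold, at log2 -0.06, 0.51 and -0.49.

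Lower glycolysis, from the oxidation of glyceraldehyde phosphate to pyruvate, had 4 longer-lived mRNAs and 1 shorter-lived of 5, with a median log2 ratio of 1.27. GAPDH, the oxidising step that yields NADH, stood at the ceiling in STM2457, against 26.3 h in DMSO. PGK1, which makes the first ATP of the pathway, was at the ceiling in STM2457, against 34.5 h in DMSO, and so was ENO1, which forms phosphoenolpyruvate, against 28.8 h in DMSO. Of these 3, PGK1 alone had a synthesis rate more than 1.5-fold higher, 87.6 in STM2457 and 54.9 in DMSO, or 1.60-fold, while ENO1 had 1423 in STM2457 and 1024 in DMSO, or 1.39-fold.

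PKM, pyruvate kinase, which makes pyruvate and ATP, had the largest ratio among the members below the ceiling. Its half-life was 65.7 h in STM2457 and 7.78 h in DMSO, 8.44-fold longer, while its synthesis rate was 993 in STM2457 and 1001 in DMSO. Put as the share of its mRNA that would be new after 180 min of labelling under each half-life, this is 3.12% in STM2457 and 23.5% in DMSO. The STM2457 half-life of PKM thus lay close to the ceiling, where that share is 2.96%. How well the fit separates these shares was not tested. The mRNA level implied by the fits rose 8.37-fold, past the 1.53-fold that 6 h of synthesis with no decay could reach. The splice forms PKM1 and PKM2 share their 3′ end, so libraries of this kind do not separate them. PKM (ENSG00000067225.18) lies on chromosome 15 (72199029 to 72231822, minus strand), and its coding sequence has a single DRACH motif at 100 nt or more from a junction, in codon 225 and 109 nt away (chr15:72208773-72208793, minus strand, GENCODE 29, GRCh38). Motifs outside the coding sequence were not counted. The motif of codon 225 is shown in capitals, since this gene with a large ratio carried so few far coding motifs.
PKM, codon 225: tcggagaaGGACAtccaggat

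PGAM1, phosphoglycerate mutase, went the other way from its neighbours in the pathway, with 4.60 h in STM2457 and 11.4 h in DMSO, a log2 ratio of -1.31. Its synthesis rate was 15.6 in STM2457 and 21.4 in DMSO, within 1.5-fold. GENCODE 29 names 13 pseudogenes after PGAM1 and 62 after GAPDH, and 18 of the 43 members have at least 1, so reads of these genes may have been shared with copies or lost to them. Exons of 6 members (GPI, PFKP, ALDOA, PGK1, LDHB and CS) overlap another gene on the same strand and those of 20 overlap one on the opposite strand, and the treatment of copies and strand in the authors' counting was not given in the sources used here.

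Both lactate dehydrogenase subunits, which interconvert pyruvate and lactate, were longer-lived. LDHA stood at the ceiling in STM2457, against 37.4 h in DMSO, and LDHB had 37.3 h in STM2457 and 22.3 h in DMSO. LDHA also had a higher synthesis rate, 231 in STM2457 and 94.0 in DMSO, or 2.46-fold, while LDHB had 452 in STM2457 and 333 in DMSO, 1.36-fold. LDHA and PGK1 were the only members past 1.5-fold upward in both measures.

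LDHA is a textbook target of the hypoxia factor HIF1 and of MYC, which bind core motifs of the kind ACGTG and CACGTG. The 250 bases before an LDHA start site in RefSeq (chr11:18394313-18394562, plus strand, GRCh38.p14) are shown because LDHA had the highest synthesis ratio in glycolysis. The capitals mark ACGTG on either strand, including CACGTG, in which a match on each strand overlaps.
LDHA, upstream window: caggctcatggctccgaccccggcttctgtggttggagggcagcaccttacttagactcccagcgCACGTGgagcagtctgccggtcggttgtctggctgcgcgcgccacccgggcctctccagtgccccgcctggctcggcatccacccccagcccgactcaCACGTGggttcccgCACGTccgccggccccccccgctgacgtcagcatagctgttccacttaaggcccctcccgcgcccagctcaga
The window of another LDHA start site (chr11:18396101-18396350) holds 0 matches, and so does that of PDHA1 (chrX:19343677-19343926), the member with the highest synthesis ratio of all. ACGTG stood in 21 of 67 upstream windows of the members (31.3%), in 23.2% of the 10290 windows of genes in the table and in 18.5% of all 35116 windows. CACGTG stood in 7 of the 67 (10.4%), 8.71% of the windows of genes in the table and 6.34% of all. Such matches are a description of the sequence and no factor's binding was measured.

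The pentose phosphate pathway divided into its isomerising enzymes and the rest. RPIA, ribose 5-phosphate isomerase, had 7.87 h in STM2457 and 20.2 h in DMSO, a log2 ratio of -1.36. RPE, ribulose phosphate epimerase, had the largest shortening of the set, with 3.88 h in STM2457 and 29.1 h in DMSO, 7.51-fold. Both act on the same substrate, ribulose 5-phosphate, and both had a higher synthesis rate: 48.3 in STM2457 and 20.1 in DMSO for RPIA, and 31.8 in STM2457 and 11.4 in DMSO for RPE.

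PGD, which releases ribulose 5-phosphate and NADPH, had 12.4 h in STM2457 and 12.3 h in DMSO. The carbon-shuffling enzymes were among the longest-lived members in both treatments: transketolase (TKT) had 41.3 h in STM2457 and 40.1 h in DMSO, and transaldolase (TALDO1) had 52.4 h in STM2457 and 39.7 h in DMSO. The synthesis ratio of TALDO1, 1.49-fold, lay just inside the size rule. RPE has 6 pseudogenes named after it in GENCODE 29 and shares exon sequence with KANSL1L on the opposite strand.

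Of the 4 subunits of the pyruvate dehydrogenase complex among the members, 3 were shorter-lived. PDHB, the beta subunit of the decarboxylase, had 6.67 h in STM2457 and 13.7 h in DMSO. DLAT, the acetyltransferase core, had 5.97 h in STM2457 and 9.70 h in DMSO. DLD, the lipoamide dehydrogenase that this complex shares with the oxoglutarate dehydrogenase complex, had 8.60 h in STM2457 and 22.9 h in DMSO, 2.67-fold shorter, with a synthesis rate 1.60-fold higher. PDHX, which anchors DLD in the complex and is not a member of the set, was listed too, with 2.34 h in STM2457 and 5.11 h in DMSO.

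PDHA1, the alpha subunit of the decarboxylase and the target of the inhibitory kinases, was the exception. It stood at the ceiling of 69.3 h in both STM2457 and DMSO, the only member to do so, and no ratio can be read from such a pair. Its synthesis rate was 73.6 in STM2457 and 19.1 in DMSO, 3.85-fold higher and the highest ratio of the set. With both half-lives capped, the mRNA level implied by the fits was also 3.85 times higher. The most that 6 h of synthesis with no decay could reach was 1.23 times, so this synthesis ratio is not a reliable size either. PDHA1 (ENSG00000131828.13) overlaps exons of MAP3K15 on the opposite strand. Of all genes, 980 were at the ceiling in STM2457 and 229 in DMSO, and 163 in both.

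The kinases that switch the complex off moved apart. PDK1 had 3.22 h in STM2457 and 5.46 h in DMSO, 1.69-fold shorter, and PDK3 had 20.0 h in STM2457 and 13.1 h in DMSO, 1.53-fold longer and just past the size rule. PDK3 was the only mitochondrial enzyme of the set counted as longer-lived.

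In the TCA cycle, the first steps were mixed. CS, citrate synthase, had 11.2 h in both STM2457 and DMSO. ACO1, the cytosolic aconitase that also serves as an iron-responsive RNA-binding protein, had 17.9 h in STM2457 and 17.6 h in DMSO. IDH1, the cytosolic NADP-dependent isocitrate dehydrogenase, had 7.40 h in STM2457 and 7.88 h in DMSO, so all 3 stayed within 1.5-fold. IDH2, the mitochondrial NADP-dependent form, had 11.5 h in STM2457 and 28.7 h in DMSO, 2.50-fold shorter.

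The NAD-dependent isocitrate dehydrogenase of the cycle is built from 3 kinds of subunit. IDH3A, the catalytic alpha subunit, had 4.63 h in STM2457 and 17.9 h in DMSO, 3.87-fold shorter. IDH3G, the regulatory gamma subunit, had 11.3 h in STM2457 and 17.9 h in DMSO, 1.59-fold shorter, and IDH3B, the beta subunit, had 18.0 h in STM2457 and 13.2 h in DMSO. The subunits of this enzyme were thus 3.89-fold apart in STM2457 and 1.35-fold apart in DMSO. IDH3A shares exon sequence with CIB2 and ACSBG1 on the opposite strand, as IDH3G does with SSR4.

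Among the members of the later steps, OGDH, SUCLG2, SUCLA2 and FH were shorter-lived, while SUCLG1, MDH1 and MDH2 were not. The subunits of succinate dehydrogenase are not members. They were not past 1.5-fold downward and are given with the closing observations. OGDH, the oxoglutarate dehydrogenase, had 6.70 h in STM2457 and 17.3 h in DMSO. SUCLG2, the GTP-forming beta subunit of succinyl-CoA ligase, had 5.51 h in STM2457 and 25.7 h in DMSO, 4.67-fold shorter. SUCLA2, the ATP-forming beta subunit, had 2.65 h in STM2457 and 6.35 h in DMSO, 2.39-fold shorter, with a synthesis rate of 39.1 in STM2457 and 21.1 in DMSO. Both beta subunits were thus shorter-lived, while their shared alpha subunit SUCLG1 had 11.4 h in STM2457 and 13.3 h in DMSO, within 1.5-fold.

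FH, fumarase, had 8.98 h in STM2457 and 25.6 h in DMSO, 2.85-fold shorter. MDH1, the cytosolic malate dehydrogenase, lay at the other end, with 45.0 h in STM2457 and 18.5 h in DMSO, 2.43-fold longer. MDH2, the mitochondrial form, stood at the ceiling of 69.3 h in STM2457, against 54.4 h in DMSO. Its ratio was at least 1.27-fold, and it was not counted as longer-lived. The synthesis rate of MDH2 was 163 in STM2457 and 76.5 in DMSO. ME2, the mitochondrial malic enzyme that makes pyruvate from malate, had 2.45 h in STM2457 and 4.55 h in DMSO, 1.85-fold shorter.

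**Figure D2:**
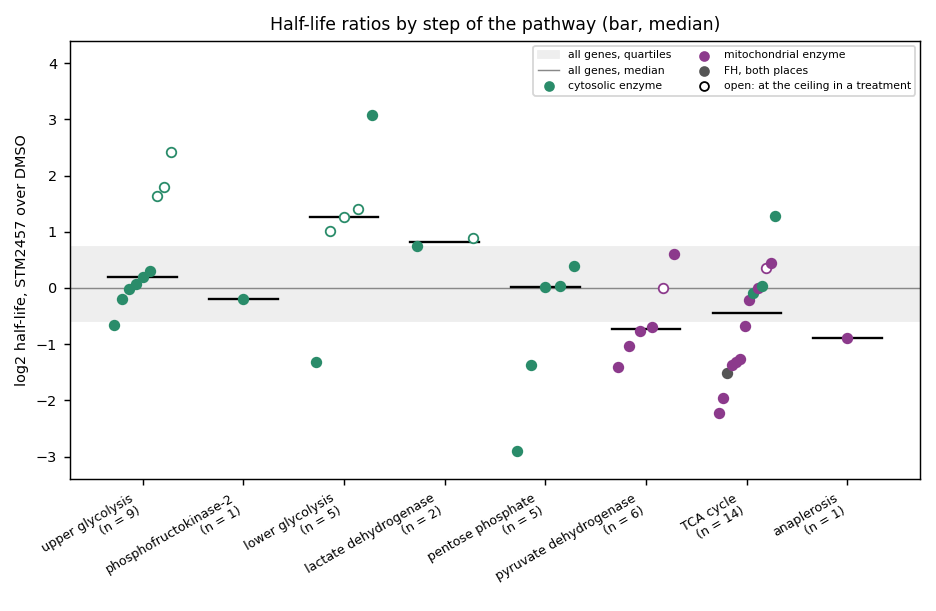
log2 half-life ratio of STM2457 over DMSO for the 43 members by step, coloured by where the enzyme works; bars are medians, open points stood at the ceiling in a treatment, and the grey band and line are the quartiles (-0.58 and 0.73) and median of all 8996 genes. Mitochondrial enzymes lie mostly below the band and the open points are mostly cytosolic enzymes above it.

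Grouped by the place of the mature protein, the cytosolic and mitochondrial enzymes differed in their counts, which was not tested. Of 25 enzymes that work in the cytosol, 10 were longer-lived and 4 shorter-lived, with a median log2 ratio of 0.20. Among 17 mitochondrial enzymes 1 was longer-lived and 11 were shorter-lived (64.7%), with a median of -0.76, and FH, which works in both places, was shorter-lived. The cytosolic exceptions were PFKP, PGAM1, RPIA and RPE. The cytosolic enzymes had a median half-life of 20.9 h in STM2457 and 18.5 h in DMSO, and the mitochondrial ones 8.60 h in STM2457 and 13.7 h in DMSO.

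Since ratios depend on the starting half-life, the members were also set beside genes of like stability. Of all genes with 10 to 30 h in DMSO, 28.6% of 1855 were longer-lived and 43.4% shorter-lived, with a median log2 ratio of -0.39. The 28 members in that range had 8 longer-lived (28.6%) and 11 shorter-lived (39.3%), with a median of 0.01, so their shares were near those of that background. Within the range, 7 of 16 cytosolic enzymes were longer-lived (43.8%), of which 5 stood at the ceiling in STM2457, and 3 were shorter-lived. Among the 11 mitochondrial enzymes, 1 was longer-lived and 7 were shorter-lived (63.6%). The counts by place thus differed within this range of stability too.

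Other enzymes, carriers and regulators of these pathways were described in the same way. Of 64 such genes searched for, 29 were listed. Of these 29, 9 were longer-lived, beside 28.5% of all genes, and 8 were shorter-lived, beside 24.9% of all genes. Both shares of the 29 were thus near those of all genes. Their median log2 ratio was -0.23, beside -0.01 for all genes. The 15 that work in the mitochondrion had 2 longer-lived and 5 shorter-lived, with a median of -0.39, and the 14 elsewhere had 7 longer-lived and 3 shorter-lived, with a median of 0.51. The highest ratios below the ceiling were those of PDP2, a phosphatase that reactivates pyruvate dehydrogenase, with 5.81 h in STM2457 and 1.74 h in DMSO, and ACLY, the cytosolic ATP citrate lyase, with 44.7 h in STM2457 and 19.6 h in DMSO. The lowest were those of DERA, a deoxyribose phosphate aldolase, with 4.85 h in STM2457 and 25.8 h in DMSO, and PDK2, another pyruvate dehydrogenase kinase, with 7.44 h in STM2457 and 34.8 h in DMSO.

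More members had a higher than a lower synthesis rate. In STM2457, 9 of the 43 members had a synthesis rate more than 1.5-fold higher, beside 12.6% of all genes. HK2 alone had one more than 1.5-fold lower, beside 13.2% of all genes. The other 33 stayed within 1.5-fold, and the median log2 ratio was 0.18 for the members and -0.06 for all genes. The 9 were PGK1, LDHA, RPIA, RPE, PDHA1, DLD, IDH3G, SUCLA2 and MDH2, of which 5 are mitochondrial enzymes. Among the 16 shorter-lived members, 12 had a synthesis ratio above 1, and so did 1502 of the 2244 shorter-lived genes of the whole table. Over all genes with 10 to 30 h in DMSO, 455 of 1855 had a higher rate past 1.5-fold and 113 a lower one. Their median log2 synthesis ratio was 0.28. The 28 members in that range had 4 higher and 0 lower, with a median of 0.19. The lean to higher rates was thus not particular to the members.

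**Figure D3:**
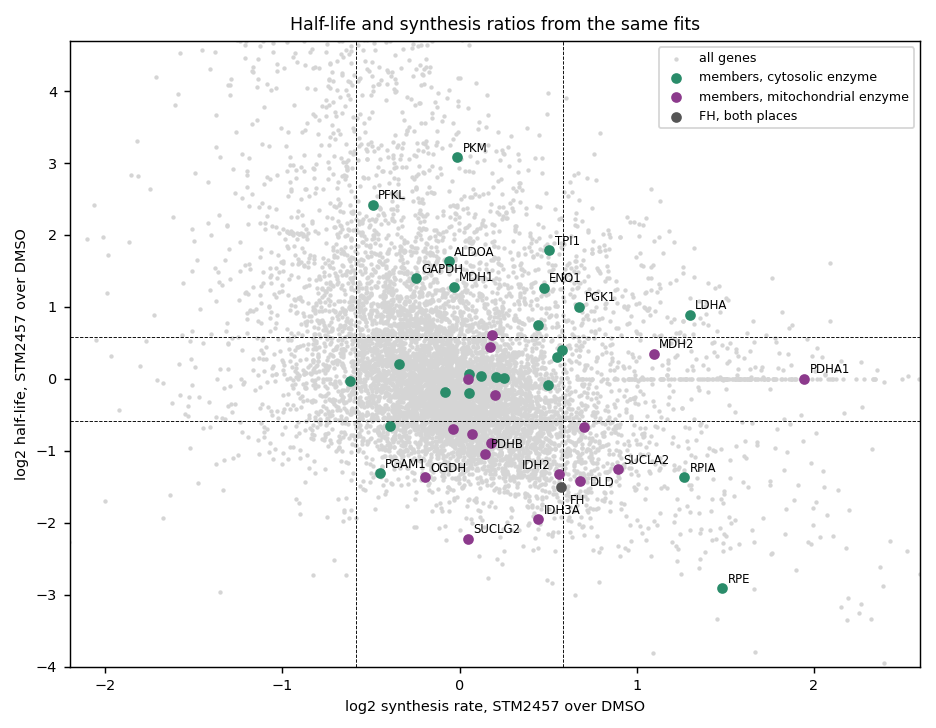
log2 half-life ratio against log2 synthesis ratio, STM2457 over DMSO, for all genes (grey) and the 43 members coloured by place of the enzyme; dashed lines mark 1.5-fold, and genes beyond the axes are not drawn. PKM and PFKL lie at the top near or below a synthesis ratio of 0 on the log2 scale, RPE and RPIA at the lower right, and PDHA1 on the line of genes at the ceiling in both treatments.

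Since 1 fit gives both quantities, an error in the half-life passes into the synthesis rate. Their product gives the mRNA level that each fit implies, and its ratio can be set beside the most that 6 h of synthesis with no decay, the time from adding STM2457 to the longest harvest, could reach from the DMSO level. For PKM the implied level was 8.37 times higher in STM2457 than in DMSO, while that limit was 1.53. The implied ratio passed its limit in 17 of 43 members (39.5%), against 23.4% of all genes, and in 10 of the 17 glycolytic ones. Among genes with 10 to 30 h in DMSO the shares were alike, at 35.7% of the members and 35.6% of all genes. TPI1, with 4.91 against a limit of 1.29, and LDHA, with 4.56 against 1.27, were also past it. Which fitted values this comes from was not tested. Of the 11 longer-lived members, 7 were at the ceiling in STM2457, where the implied new share at 180 min is 2.96%; in DMSO that share was 7.61% for GAPDH and 6.96% for ENO1.

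Coding DRACH motifs far from exon junctions, where m6A is known to be concentrated, were few in these genes. Motifs in the untranslated regions were not counted, so the number of candidate sites in the whole mRNA is not known here. All 43 members had a coding sequence in GENCODE 29, and 21 had 0 motifs at 100 nt or more from a junction, 17 had 1 to 3 and 5 had 4 or 5. The median was 1 for the members and 3 for the 8473 genes of the table with such a sequence. Motifs at any distance were nearly as many, with a median of 25 for the members and 27 for all genes, so 51 of the 1234 coding motifs of the members were far from a junction. The longest coding exon had a median of 191 nt in the members and 266 nt in all genes.

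Over all genes, those with 10 or more far motifs had a median log2 half-life ratio of 0.47, and those with 0 had -0.21. No member fell in the class of 10 or more. The members with 0 far motifs had 4 longer-lived and 7 shorter-lived of 21, with a median of 0.01. All genes with 0 had 466 longer-lived and 686 shorter-lived of 2094. Members with 1 to 3 had 6 longer-lived and 6 shorter-lived of 17, with a median of 0.00. All genes with 1 to 3 had 505 longer-lived and 791 shorter-lived of 2507. Members with 4 or 5 had 1 longer-lived, GAPDH, and 3 shorter-lived of 5, with a median of -0.70. All genes with 4 to 9 had 451 longer-lived and 401 shorter-lived of 1711. Spearman's rho of the number of far motifs with the ratio was 0.01 across the 43 members and 0.26 across the 8473 genes. It is given as a description across genes that share the same libraries. The members reach only 5 far motifs and all genes include the class of 10 or more. These values of rho thus cover unlike ranges and do not show that the members differ from other genes.

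GGACT, the best-known form of the motif, stood far from a junction in only 4 members, and these did not move together: CS stayed within 1.5-fold and DLAT, PDK1 and PGAM1 were shorter-lived. Their windows are shown with the motif in capitals (GENCODE 29, GRCh38), for CS at chr12:56273090-56273110 (minus strand), DLAT at chr11:112025513-112025533 (plus), PDK1 at chr2:172556232-172556252 (plus) and PGAM1 at chr10:97430479-97430499 (plus).
CS, codon 462: aagtttgtGGACTctaagtca
DLAT, codon 17: catgggcgGGACTcgaggctc
PDK1, codon 31: ttcagctcGGACTcgggctcc
PGAM1, codon 84: agtggtgaGGACTtggcgcct
The 3 members with the strongest shortening, RPE, SUCLG2 and IDH3A, had 0 far coding motifs of any form.

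**Figure D4:**
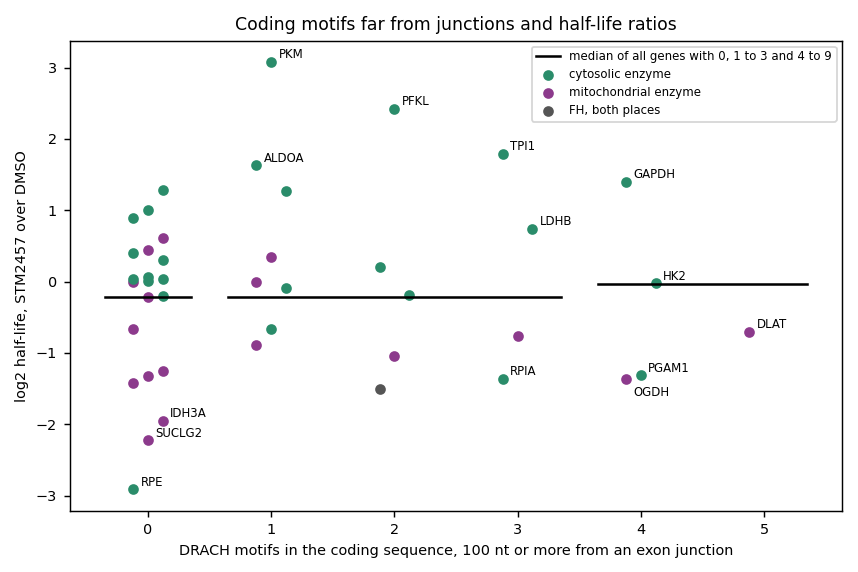
log2 half-life ratio of STM2457 over DMSO against the number of coding DRACH motifs at 100 nt or more from an exon junction for the 43 members, offset sideways for legibility; black bars are the medians of all genes with 0 (-0.21), 1 to 3 (-0.22) and 4 to 9 (-0.03) motifs. Members with 0 motifs span the range from RPE at -2.91 to MDH1 at 1.28, and PKM, with 1, is the highest point. Fitted ratios of members at the ceiling are lower bounds of an uncapped fit only.

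PFKFB2, which like PFKFB3 sets the activator of phosphofructokinase, ENO2, the neuronal enolase, DLST, the succinyltransferase of the oxoglutarate dehydrogenase complex, and PC, pyruvate carboxylase, were absent from the table. PGLS, the lactonase of the pentose phosphate pathway, was absent by symbol. Its Ensembl identifier, ENSG00000130313, which GENCODE 29 names PGLS, was listed under the symbol AC010618.1 with 3.68 h in STM2457 and 8.05 h in DMSO, a log2 ratio of -1.13, and it was not counted among the members.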

How the data were processed

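Per the labels, 18 HEK293T samples were treated with STM2457 or DMSO, 5 µg of RNA was alkylated, and 3′ mRNA libraries were read in 1 direction; 1 library had a lower input than the others, and it could not be matched to a sample or treatment. The submitters' processing notes name FastQC 0.11.9, STAR 2.7.8a and the build GRCh38.p12. The kinetics tool, its annotation, the gene filter and the libraries behind each fit were not given in the sources used here. What the authors deposited is a fitted half-life and synthesis rate for every gene in each treatment, and log2 ratios of STM2457 over DMSO, which differed by at most 1.27e-14 from those recomputed. Depth is unknown. Synthesis rates are in the table's own units, which may or may not be per length, and were not compared between genes; 3 genes with a rate of 0 in STM2457 have no synthesis ratio.

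The members, gene lists and size rule were chosen with earlier results of these data known, and the places of the other pathway genes were assigned after their values were seen. Every listed member is named, and of the other pathway genes the 2 highest and 2 lowest ratios below the ceiling; PDHX and the genes of the closing observations were chosen after their values were seen. Of 8996 identifiers, 8982 were in GENCODE 29. For each gene the transcript with the longest complete coding sequence was used. Upstream windows are those of RefSeq (GRCh38.p14). The counting was tested on simulated data. Alternatives changed the size rule, the range of half-lives, the ceiling, the centring, the gene set and the summary. Python 3.11.15, NumPy 2.4.6, pandas 2.3.3 and Matplotlib 3.10.9 were used.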

Additional observations from a re-analysis of the deposited data

How the results depend on the processing

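The count of 16 shorter-lived members ranged from 11 with a 2-fold rule to 24 with the other pathway genes added (72 genes), within 1.5 times of the reported count in each. The count of 11 longer-lived members became 1 among the 25 with both half-lives between 0.5 and 24 h, 4 among the 34 below the ceiling and 20 with the other pathway genes. The limits of 24 h and of the ceiling also apply to the STM2457 half-life and remove mRNAs because it is long. They lower the longer-lived count and the medians by design, so they cannot check them. With these restrictions the median log2 half-life ratio was -0.22 for 0.5 to 24 h and -0.21 below the ceiling, in place of 0.00. That of lower glycolysis was -1.31 within 0.5 to 24 h, where PGAM1 alone was left, against 1.27 over all 5. Other steps moved too: the TCA cycle had a median of -0.22 within 0.5 to 24 h and -0.67 below the ceiling, against -0.45, and upper glycolysis had 0.02 under both restrictions, against 0.20. The pentose phosphate median of 0.01 was -0.67 within 0.5 to 24 h, where RPIA and PGD alone were left, and its mean was -0.76. The 9 members with a higher synthesis rate became 18 with a looser size rule, 5 with a 2-fold rule, 4 within 0.5 to 24 h, 5 below the ceiling and 14 with the other pathway genes. The 1 with a lower rate became 5 with that looser rule, 0 with a 2-fold rule, 0 when centred on the median of all genes and 3 with the other pathway genes, and the mean log2 synthesis ratio was 0.31, against a median of 0.18. Counting PGLS by its identifier, an alternative chosen after seeing the data, gave 17 shorter-lived of 44. No paired analysis was possible because the table has no value per sample, and leaving out a replicate was not possible for the same reason.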

Other observations

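Among the further genes of these pathways, pairs of proteins that act together also differed. Of the succinate dehydrogenase subunits, SDHC had 54.7 h in STM2457 and 28.8 h in DMSO, while SDHA had 8.18 h in STM2457 and 12.0 h in DMSO, SDHB had 11.7 h in STM2457 and 17.0 h in DMSO, and SDHD had 6.33 h in STM2457 and 8.30 h in DMSO. The mitochondrial pyruvate carrier is a pair, of which MPC1 had 7.39 h in STM2457 and 13.7 h in DMSO and MPC2 had 35.2 h in STM2457 and 40.0 h in DMSO.

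SLC2A1, the main glucose transporter of the cell surface, had 4.91 h in STM2457 and 2.76 h in DMSO, 1.78-fold longer. The mitochondrial carriers of dicarboxylates and oxoglutarate were shorter-lived: SLC25A10 had 4.43 h in STM2457 and 18.9 h in DMSO, and SLC25A11 had 4.36 h in STM2457 and 16.7 h in DMSO. These genes were chosen after their values were seen.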
